A study of Mus musculus with 3 samples.

Results

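The 10 growth factor genes described here, Igf1, Pdgfa, Pdgfb, Pdgfc, Vegfa, Vegfb, Tgfb1, Hbegf, Osm and Csf1, were taken by name as secreted factors linked to cardiac repair, with earlier results of these data known, and were read out of 54752 gene symbols, 26962 of which had at least 1 unique molecular identifier (UMI, 1 tagged RNA molecule) in the kept cells. The data were UMI counts from single cells of 3 mouse heart libraries, filtered to cells with 500 to 30000 UMIs, 500 to 5000 genes and a mitochondrial share under 10%, which left 10550 cells. All animals were C57BL/6 mice operated on at postnatal day 10 (P10) and collected 3 days later, at P13. P10-sham_vehicle hearts had a sham operation, P10-MI_vehicle hearts had a ligated left anterior descending coronary artery (myocardial infarction, MI), and both received vehicle, whereas P10-MI_SB225002 hearts were infarcted and the mice were given SB225002, a compound that blocks the chemokine receptor CXCR2, once a day after surgery. In every group, cells of infarct and border zone were pooled over hearts and sorted for CD45 and F4/80, the leukocyte and macrophage surface markers, so that each condition was 1 library and no test between conditions was possible.

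Macrophages and monocytes, together called mononuclear phagocytes (MPCs), are held to aid repair of the infarcted heart partly through secreted growth factors. IGF1 acts on muscle cells through the receptor IGF1R, the PDGF ligands act on fibroblasts and mural cells through PDGFRA and PDGFRB, and the VEGF ligands act mainly on endothelium. TGFB1 is secreted in a latent form and drives the conversion of fibroblasts to myofibroblasts once activated, HB-EGF is shed from the membrane and binds the EGF receptor, oncostatin M (Osm) is a cytokine of the interleukin 6 family, and CSF1 is the growth and survival factor of macrophages themselves.

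The 3 libraries held 2352 (sham), 3454 (MI) and 4744 (MI with SB225002) kept cells with medians of 8520, 6400 and 5654 UMIs per cell. Marker sums that contain no growth factor gene gated the cells into 16 classes. C1q+ macrophages, which express the complement genes C1qa, C1qb and C1qc, numbered 2026, 2360 and 3031 cells, and all MPCs 2061, 2767 and 3780. Adgre1, which encodes F4/80, was found in 91.8%, 82.8% and 78.4% of MPCs, but in only 7.89%, 5.63% and 2.61% of the cells in the fibroblast class and 7.14%, 7.81% and 9.14% in the endothelial class, so F4/80 RNA was low in these classes, which are given for reference. Kept cells shared 786 barcodes between the sham and MI libraries, 842 between sham and SB225002, 1356 between the MI libraries and 363 among all 3. Barcode pairs fell in the same class in 28.1%, 19.7% and 16.1% of cases, against 26.8%, 19.9% and 15.8% from the class makeup alone, and values without the shared barcodes are given where they differ.

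Sequences upstream of the annotated starts are shown for Pdgfc and Csf1, on which the comparisons below turn, and for Vegfa, a classic hypoxia target. They are the 250 bases before the start in RefSeq's table for GRCm38.p6 (mm10), written 5′ to 3′ on the gene's strand, at chr3:81036166-81036415 (plus strand), chr3:107760470-107760719 (minus strand) and chr17:46032378-46032627 (minus strand, the first of 2 Vegfa starts). Capitals would mark a match to 1 of 3 motifs searched on both strands, ACGTG (core of the hypoxia response element), TGANTCA (AP-1) and GAGGAAGT (PU.1).
Pdgfc: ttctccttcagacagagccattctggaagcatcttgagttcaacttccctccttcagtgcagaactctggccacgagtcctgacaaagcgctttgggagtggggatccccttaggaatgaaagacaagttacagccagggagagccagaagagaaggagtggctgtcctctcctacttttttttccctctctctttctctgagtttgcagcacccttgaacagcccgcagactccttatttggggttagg
Csf1: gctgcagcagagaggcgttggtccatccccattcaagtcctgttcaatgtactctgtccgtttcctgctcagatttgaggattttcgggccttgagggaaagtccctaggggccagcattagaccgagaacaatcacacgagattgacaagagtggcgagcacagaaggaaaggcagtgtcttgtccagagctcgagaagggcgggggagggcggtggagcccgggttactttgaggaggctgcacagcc
Vegfa: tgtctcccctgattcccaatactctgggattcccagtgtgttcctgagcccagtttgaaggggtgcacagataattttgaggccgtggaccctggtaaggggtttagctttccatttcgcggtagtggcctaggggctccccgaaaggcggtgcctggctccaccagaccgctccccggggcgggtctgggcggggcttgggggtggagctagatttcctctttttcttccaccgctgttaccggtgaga
None of these 3 windows held a match, which says only that these letters are not in them. Of the 9 windows of the 7 genes with an entry, 2 held 1 match each, an AP-1 motif for Igf1 and a hypoxia core for the second Vegfa start, and both windows lie wholly inside the gene in GENCODE vM21, with 250 and 218 of their 250 bases in annotated exons, so they are not shown. Over 32851 such windows, 16.6% held the hypoxia core, 6.75% the AP-1 motif and 2.44% the PU.1 motif. Pdgfb, Hbegf and Osm had no entry.

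Levels are given as CPM, the gene's UMIs scaled to 1000000 UMIs of all cells in a class, with exact Poisson 95% intervals that cover counting error only and not differences between animals. Because UMIs are not divided by transcript length, levels of different genes are not compared. Gene positions are those of GENCODE vM21 on GRCm38, counted from 1, and all 10 genes are protein coding. Igf1 (chromosome 10, 87858265 to 87937042) was carried by C1q+ macrophages in every library, at 403 CPM (394 to 412) in sham, 448 CPM (438 to 458) after MI and 355 CPM (347 to 363) after MI with SB225002. Among classes with at least 50 cells in a library, its highest class in sham was the Lyve1+Folr2+ macrophages, a resident type, with 423 CPM. After MI it was the Trem2+Spp1+ macrophages, gated on the summed UMIs of Trem2, Spp1 (osteopontin), Gpnmb, Fabp5, Cd9, Lpl and Ctsd, with 612 CPM (570 to 655), against 484 CPM (467 to 502) in Lyve1+Folr2+ macrophages, and these intervals did not overlap. In sham the 8 Trem2+Spp1+ macrophages held 59 Igf1 UMIs among 77255 UMIs, a level above 423 CPM from few cells. With classes taken from clusters instead of gates, the Lyve1+Folr2+ class was highest after MI, so this order depended on how the classes were drawn. Igf1 was also present in fibroblasts, at 193, 216 and 280 CPM. Its 18.9, 35.2 and 12.9 CPM in Ly6c+ monocytes and 30.2, 51.1 and 25.1 CPM in neutrophils had intervals that overlapped or lay below those of B cells, which should lack the gene and had 66.2, 17.0 and 98.2 CPM from 9, 4 and 10 UMIs, and are read as background.

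The 3 PDGF genes differed in where they were found. Pdgfc (chromosome 3, 81036416 to 81214040), which encodes a ligand that is secreted latent and freed by proteolysis, was highest in Lyve1+Folr2+ macrophages in all 3 libraries, at 64.3 CPM (59.0 to 69.9), 65.6 CPM (59.4 to 72.3) and 47.7 CPM (41.4 to 54.7). After MI the interval of Trem2+Spp1+ macrophages, at 59.9 CPM (47.4 to 74.6), overlapped it. Other C1q+ macrophages, without markers of a named subtype, had 36.4, 35.8 and 28.5 CPM, and fibroblasts 1.79, 4.74 and 3.48 CPM. Pdgfb (chromosome 15, 79995874 to 80014977), the ligand that recruits pericytes, was high in endothelial cells, at 251 CPM (191 to 323) in 42 cells, 268 CPM (212 to 335) in 64 cells and 317 CPM (278 to 360) in 186 cells. In C1q+ macrophages it stood at 53.8, 54.1 and 57.2 CPM, with 36.7, 34.5 and 44.4 CPM in the Lyve1+Folr2+ class and 67.3, 67.3 and 66.4 CPM in other C1q+ macrophages. Fibroblasts were close to empty of it, with 1, 2 and 2 UMIs. Pdgfa (chromosome 5, 138976014 to 138997370), whose product binds PDGFRA, stood at 19.1, 20.7 and 23.5 CPM in Lyve1+Folr2+ and 29.1, 26.0 and 29.9 CPM in other C1q+ macrophages. In sham the intervals of these classes, 16.3 to 22.3 and 25.9 to 32.6 CPM, did not overlap, whereas in both MI libraries they did. With SB225002 the highest class of at least 50 cells was the Trem2+Spp1+ macrophages, with 20.3% of Pdgfa UMIs and 13.8% of all UMIs. With classes from clusters it was the fibroblasts. Of small classes, mural cells held 3, 5 and 7 Pdgfa UMIs in 4, 3 and 8 cells, and the 8 sham Trem2+Spp1+ macrophages held 14.

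Of the VEGF genes, Vegfb (chromosome 19, 6982473 to 6987651), a ligand of the receptor FLT1, was the one found broadly in C1q+ macrophages, at 33.5, 30.4 and 27.9 CPM. Vegfa (chromosome 17, 46016993 to 46032369), the main angiogenic factor, was nearly absent from them, with 10, 28 and 37 UMIs (0.529, 1.63 and 1.82 CPM) in 2026, 2360 and 3031 cells. Fibroblasts held it at 67.9 CPM (48.0 to 93.1), 55.5 CPM (44.2 to 68.9) and 28.7 CPM (19.8 to 40.4). Among MPCs, it stood in the Arg1+ C1q-low class, cells with Arg1, Prg4 or Serpinb2 and few C1q UMIs, at 26.9 CPM (15.4 to 43.7) in 55 cells after MI and 11.8 CPM (5.08 to 23.2) in 95 cells with SB225002. Both intervals overlapped those of B cells, with 1 and 0 Vegfa UMIs (up to 23.7 and 36.2 CPM), so B cells did not tell these levels apart from background. The B cell class held few UMIs in all, 234902 and 101844, which leaves its bounds wide. Both intervals lay above the 1.63 and 1.82 CPM of C1q+ macrophages in the same libraries.

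Tgfb1 (chromosome 7, 25687002 to 25705077) was found in macrophages, monocytes and other leukocytes alike. It stood at 190, 189 and 212 CPM in C1q+ macrophages and 215, 265 and 238 CPM in Ly6c+ monocytes, the recruited blood monocytes, and was lower in neutrophils, at 52.1, 85.1 and 81.7 CPM. Fibroblasts had 33.9 CPM (20.4 to 53.0), 59.6 CPM (47.8 to 73.4) and 28.7 CPM (19.8 to 40.4).

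Hbegf, on chromosome 18, had only 30, 84 and 64 UMIs in all kept cells. MPCs held 13, 39 and 28 of them, in 0.582%, 0.904% and 0.635% of cells, and endothelial cells 5, 13 and 10, in 9.52%, 12.5% and 4.30% of cells. None was found among 22, 54 and 41 B cells, which allows shares of up to 15.4%, 6.60% and 8.60% by the exact binomial bound, too wide to set a background for shares this low.

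Osm (chromosome 11, 4236420 to 4241026) had its highest levels in P10-MI_vehicle in Arg1+ C1q-low cells and neutrophils, with overlapping intervals, and in P10-MI_SB225002 in neutrophils. With classes from clusters, neutrophils were highest in P10-MI_vehicle too. In sham most of its UMIs lay in C1q+ macrophages, which were 86.1% of the kept cells there but had a lower level than neutrophils. Neutrophils, sorted with the MPCs but no part of them, had 107 CPM (76.1 to 146) in 26 sham cells, 87.2 CPM (72.5 to 104) in 107 cells after MI and 191 CPM (166 to 219) in 184 cells with SB225002. After MI the Arg1+ C1q-low class had 111 CPM (85.8 to 141) and Ly6c+ monocytes 38.2 CPM (29.4 to 48.8), whereas other C1q+ macrophages had 6.91, 9.57 and 11.7 CPM in the 3 libraries. Fibroblasts held 0, 0 and 1 UMIs.

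Csf1 (chromosome 3, 107741048 to 107760469) was highest, among classes with at least 50 cells in a library, in fibroblasts in sham and in Trem2+Spp1+ C1q-low cells in both MI libraries. Higher levels from few cells were found in 8 Trem2+Spp1+ macrophages in sham (233 CPM) and in 13 T and NK cells with SB225002 (487 CPM). Fibroblasts had 109 CPM (83.3 to 140), 74.5 CPM (61.2 to 89.8) and 68.8 CPM (54.5 to 85.7). No Trem2+Spp1+ C1q-low cell was found in sham, while 75 such cells had 293 CPM (255 to 335) after MI and 314 had 243 CPM (224 to 263) with SB225002. This class was added once the leading genes of unassigned cells, Csf1 among them, had been seen, so its level is a description of how it was found. Levels were low in the larger macrophage classes, at 2.11, 7.22 and 5.12 CPM in the Lyve1+Folr2+ class and 3.26, 4.78 and 5.17 CPM in other C1q+ macrophages, and B cells held 0, 0 and 1 UMIs.

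**Figure D1:**
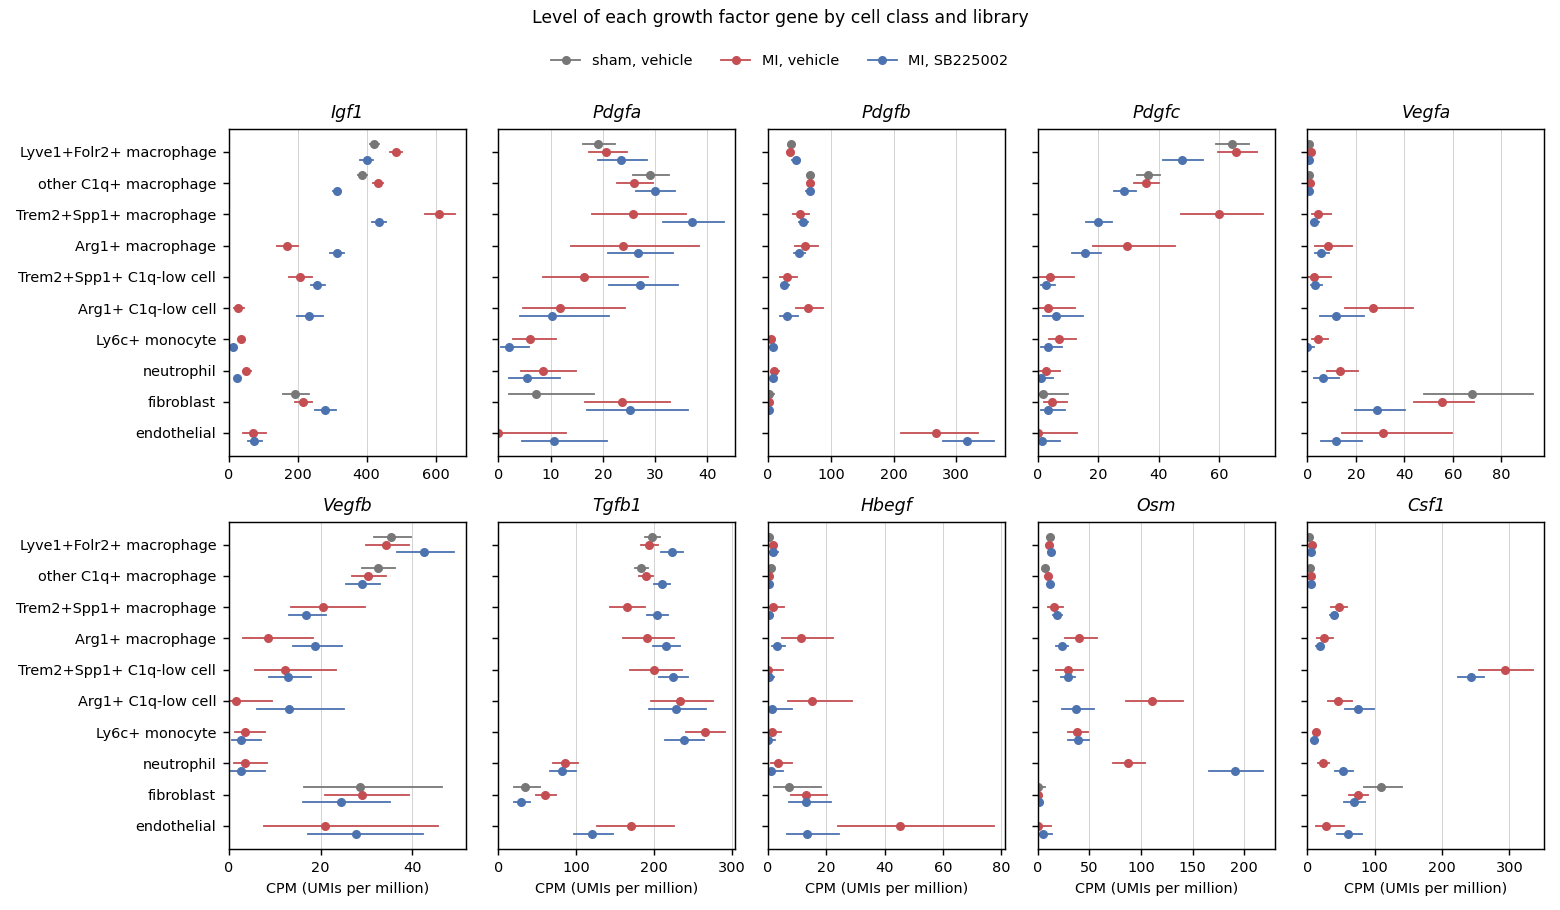
Level of each gene (CPM, x axis, a scale of its own in each panel) in 10 cell classes (y axis) for the sham (grey), MI (red) and MI with SB225002 (blue) libraries, for classes with at least 50 cells in the library. Points are the summed UMIs of a class and lines exact Poisson 95% intervals; Pdgfc is highest in Lyve1+Folr2+ macrophages in all 3 libraries and Csf1 in Trem2+Spp1+ C1q-low cells after MI (293 and 243 CPM).

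The question put to the first comparison was which of these factors differed between infarcted and sham hearts. With no replicates, a gene was counted as past the fold where the log2 ratio of CPM was at least 0.5 in size and both libraries together held at least 50 UMIs; log2 ratios carry exact conditional 95% intervals, again for counting error only. Over all MPCs, 4 of the 10 genes, Csf1, Vegfa, Hbegf and Osm, were higher in P10-MI_vehicle than in P10-sham_vehicle and 0 were lower, where 8.61% of 12381 genes were higher and 5.68% lower by the same rule. Vegfa and Hbegf passed the limit of 50 UMIs mostly through their UMIs after MI, so their place in this count was partly set by the filter. Within C1q+ macrophages, Csf1 alone was higher and 0 were lower of 8 genes with enough UMIs, against 6.36% of 12130 genes higher and 4.11% lower.

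Csf1 went from 73 UMIs and 3.79 CPM (2.97 to 4.77) in sham MPCs to 428 UMIs and 20.8 CPM (18.9 to 22.9) after MI, a log2 ratio of 2.45 (2.09 to 2.83). Because the cells of the MPC sum differ between the libraries, more cells of a high class and more RNA per cell cannot be told apart in it, and values within classes are given beside it. In C1q+ macrophages the levels were 3.70 CPM (2.89 to 4.68) and 9.59 CPM (8.18 to 11.2), a log2 ratio of 1.37 (0.96 to 1.80). Lyve1+Folr2+ macrophages, of which both libraries held about as many (901 and 911 cells), went from 18 to 45 UMIs, 2.11 CPM (1.25 to 3.34) against 7.22 CPM (5.27 to 9.66), a log2 ratio of 1.77 (0.96 to 2.65). In other C1q+ macrophages the log2 ratio was 0.55 (-0.14 to 1.26), an interval that includes 0. Without the Trem2+Spp1+ C1q-low cells, a class prompted in part by Csf1 itself and holding 214 of the 428 UMIs after MI, MPCs had 10.8 CPM after MI and a log2 ratio of 1.51 (1.12 to 1.91). Without barcodes that libraries share, the log2 ratio was 2.86 over all MPCs and 2.10 in C1q+ macrophages. Of Lyve1+Folr2+ macrophages thinned to 1000 UMIs each, 3 of 890 in sham and 7 of 893 after MI held a Csf1 UMI, 0.337% (0.070 to 0.982) and 0.784% (0.316 to 1.61), so that at this equal depth the shares were not told apart. Fibroblasts went the other way, with a log2 ratio of -0.55 (-1.01 to -0.07). Sham hearts held 8 Trem2+Spp1+ macrophages, and 4 of these cells carried 18 Csf1 UMIs, so weighting the sham classes to the makeup of P10-MI_vehicle gave a log2 ratio of -0.99 that rests on them, against 1.07 over the 2 classes with at least 50 cells in both libraries.

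Osm stood at 181 UMIs and 9.41 CPM (8.09 to 10.9) in sham MPCs and 355 UMIs and 17.2 CPM (15.5 to 19.1) after MI, a log2 ratio of 0.87 (0.61 to 1.14). In C1q+ macrophages the log2 ratio was 0.32 (0.02 to 0.62), in neutrophils -0.29 (-0.82 to 0.26), and in Ly6c+ monocytes 1.02 (-0.28 to 2.69) from 5 and 64 UMIs, past the fold with an interval that includes 0. Weighting the classes to P10-MI_vehicle gave -0.09 over 8 classes and 0.18 over the 2 with at least 50 cells. The summed UMIs of 12 neutrophil marker genes in MPCs were at 68.8 CPM in sham and 212 CPM after MI, and their part in the Osm values was not tested.

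Vegfa had 10 UMIs (0.520 CPM) in sham MPCs and 55 UMIs (2.67 CPM) after MI, a log2 ratio of 2.36 (1.38 to 3.50), and Hbegf 13 UMIs (0.676 CPM) and 39 UMIs (1.89 CPM), a log2 ratio of 1.49 (0.55 to 2.52). Of the 55 Vegfa UMIs after MI, 16 lay in the 55 Arg1+ C1q-low cells, and the levels of both genes were under 3 CPM. Summed fibroblast markers, which mark the class with most Vegfa, stood at 30.7 and 43.2 CPM in the MPCs of these libraries, and their part in the difference was not tested.

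The 6 other genes were within the fold over all MPCs. Igf1 stood at 396 and 386 CPM, a log2 ratio of -0.04 (-0.08 to 0.01), and in C1q+ macrophages at 403 and 448 CPM, 0.15 (0.11 to 0.20). Tgfb1 had log2 ratios of 0.05 (-0.01 to 0.12) over MPCs and -0.01 (-0.08 to 0.06) in C1q+ macrophages, and Pdgfb -0.12 (-0.25 to 0.01) and 0.01 (-0.12 to 0.14). Vegfb, Pdgfc and Pdgfa were lower over MPCs beyond counting error, at -0.32 (-0.49 to -0.15), -0.24 (-0.37 to -0.10) and -0.23 (-0.42 to -0.04), but their intervals in C1q+ macrophages all included 0. Tgfb1 in fibroblasts was higher after MI, with a log2 ratio of 0.81 (0.09 to 1.61) from 19 and 88 UMIs.

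The second comparison addressed CXCR2 blockade after MI and shares the P10-MI_vehicle library with the first, so high or low values of that library enter both with opposite sign. Over all MPCs of P10-MI_SB225002, Csf1 was higher and Pdgfc and Hbegf were lower, 1 and 2 of 10 genes, where 5.3% of 12599 genes were higher and 10.4% lower. Within C1q+ macrophages, Csf1 was higher and Pdgfc lower, 1 and 1 of 9 genes with enough UMIs, against 6.21% of 12174 genes higher and 9.51% lower.

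**Figure D2:**
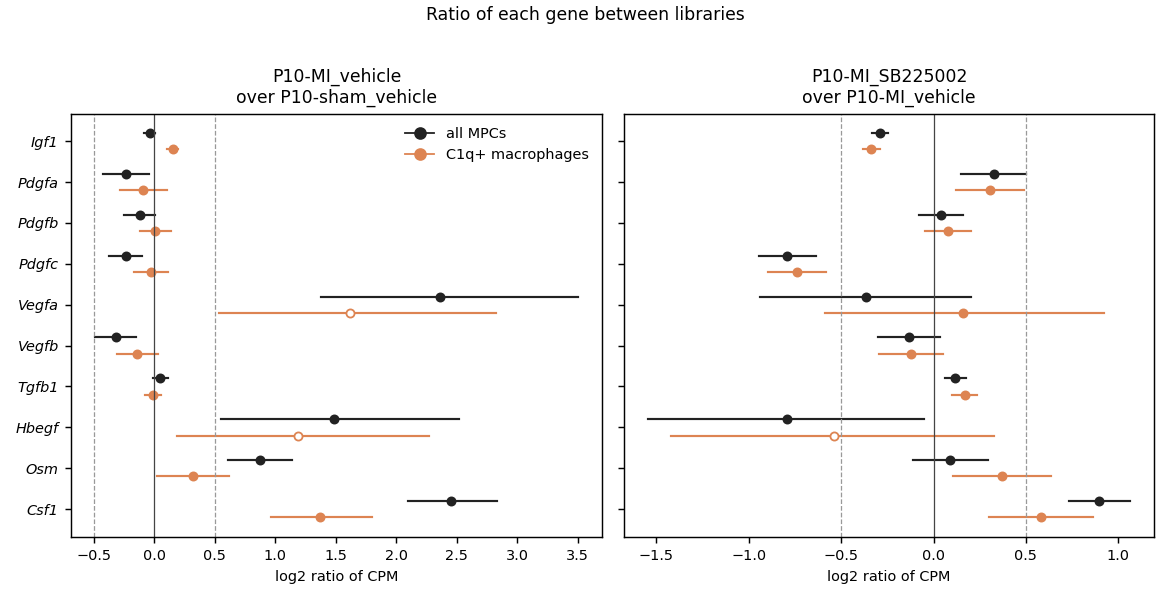
Log2 ratio of CPM (x axis) of each gene (y axis) for P10-MI_vehicle over P10-sham_vehicle (left) and P10-MI_SB225002 over P10-MI_vehicle (right), over all MPCs (black) and C1q+ macrophages (orange), with exact 95% intervals. Dashed lines mark a log2 ratio of 0.5 in either direction and open points genes with under 50 UMIs over both libraries; Csf1 lies to the right of 0.5 in all 4 cases and Pdgfc to the left of -0.5 with SB225002.

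Pdgfc was lower with SB225002 over all MPCs and within 4 macrophage classes. It stood at 840 UMIs and 40.8 CPM (38.1 to 43.7) in MPCs of P10-MI_vehicle and 603 UMIs and 23.6 CPM (21.7 to 25.5) in those of P10-MI_SB225002, a log2 ratio of -0.79 (-0.94 to -0.64). The sham library, which entered neither value, had 48.0 CPM (45.0 to 51.2). Trem2+Spp1+ macrophages differed most, at 59.9 CPM (47.4 to 74.6) and 19.8 CPM (15.8 to 24.5), a log2 ratio of -1.60 (-2.05 to -1.14), followed by Arg1+ macrophages at -0.93 (-1.72 to -0.11), Lyve1+Folr2+ macrophages at -0.46 (-0.71 to -0.22) and other C1q+ macrophages at -0.33 (-0.58 to -0.08). All 4 intervals lay below 0, and the interval of Trem2+Spp1+ macrophages overlapped neither that of Lyve1+Folr2+ nor that of other C1q+ macrophages. Weighting the classes to the makeup of P10-MI_vehicle left a log2 ratio of -0.49, just inside the fold. Cells with at least 1 Pdgfc UMI made up 26.6%, 23.1% and 14.6% of C1q+ macrophages in the sham, MI and SB225002 libraries, and after thinning to 1000 UMIs 4.45% (3.59 to 5.45), 5.11% (4.24 to 6.08) and 3.11% (2.52 to 3.80), so the lower share in SB225002 than in MI was seen at equal depth. Fibroblasts, in which the gene was close to background, had shares of 1.32%, 2.35% and 2.61% before thinning.

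Csf1 was higher over all MPCs but not within the Trem2+Spp1+ and Lyve1+Folr2+ classes. MPCs held 428 UMIs and 20.8 CPM (18.9 to 22.9) in P10-MI_vehicle and 991 UMIs and 38.7 CPM (36.4 to 41.2) in P10-MI_SB225002, a log2 ratio of 0.90 (0.73 to 1.07). The Trem2+Spp1+ C1q-low class, prompted in part by Csf1 itself, held 214 and 626 of these UMIs, and without it the levels were 10.8 and 15.9 CPM, a log2 ratio of 0.56 (0.31 to 0.81). In Trem2+Spp1+ C1q-low cells it was at 293 and 243 CPM, -0.27 (-0.50 to -0.04), in Trem2+Spp1+ macrophages at 46.2 and 39.6 CPM, -0.22 (-0.65 to 0.22), and in Lyve1+Folr2+ macrophages at 7.22 and 5.12 CPM, -0.50 (-1.30 to 0.27). The Trem2+Spp1+ C1q-low class made up 2.17% of kept cells in P10-MI_vehicle and 6.62% in P10-MI_SB225002, and the Trem2+Spp1+ macrophages 3.76% and 11.7%. With the classes weighted to the P10-MI_vehicle makeup the log2 ratio was -0.14 over all MPCs and -0.19 in C1q+ macrophages, where it had been 0.58 (0.30 to 0.86) as found. Without barcodes that libraries share, the ratio in C1q+ macrophages was 0.14 and over all MPCs 0.91, and with gate limits of 0.5 times the height the C1q+ ratio was 1.33. Arg1+ C1q-low cells went from 45.4 to 75.0 CPM, 0.72 (0.02 to 1.45), and neutrophils from 22.7 to 53.0 CPM, 1.22 (0.58 to 1.89), the latter turning to -0.26 with classes from clusters and -0.14 with gate limits of 2 times the height. The 13 T and NK cells of the SB225002 library held 15 Csf1 UMIs (487 CPM, 273 to 803), against 2 UMIs (13.9 CPM) in the MI library, values singled out after they were seen.

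Igf1 was lower with SB225002 over all MPCs, at 386 and 316 CPM, a log2 ratio of -0.29 (-0.33 to -0.25) that is within the fold, and the classes moved in opposite directions. Trem2+Spp1+ macrophages went from 612 CPM (570 to 655) to 436 CPM (416 to 456), -0.49 (-0.61 to -0.37), other C1q+ macrophages from 433 to 314 CPM, -0.46 (-0.53 to -0.39), and Lyve1+Folr2+ macrophages from 484 to 401 CPM, -0.27 (-0.36 to -0.19). Arg1+ macrophages went from 169 CPM (140 to 202) in 75 cells to 313 CPM (293 to 335) in 324 cells, 0.89 (0.61 to 1.18), and Arg1+ C1q-low cells from 26.9 CPM (15.4 to 43.7) in 55 cells to 234 CPM (199 to 273) in 95 cells, 3.12 (2.38 to 3.96), where the level in P10-MI_vehicle lay within the background interval of B cells in that library (4.64 to 43.6 CPM). Fibroblasts went from 216 to 280 CPM, 0.37 (0.14 to 0.60). Trem2+Spp1+ C1q-low cells went from 207 to 258 CPM, 0.31 (0.06 to 0.58). Weighting the classes to the P10-MI_vehicle makeup left the MPC value at -0.31. The dividing share of Arg1+ C1q-low cells was 0% in P10-MI_vehicle and 27.4% in P10-MI_SB225002, and their median depth was 8191 and 5234 UMIs, so the cells that passed this gate differed in other respects too; their part in the Igf1 values was not tested.

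**Figure D3:**
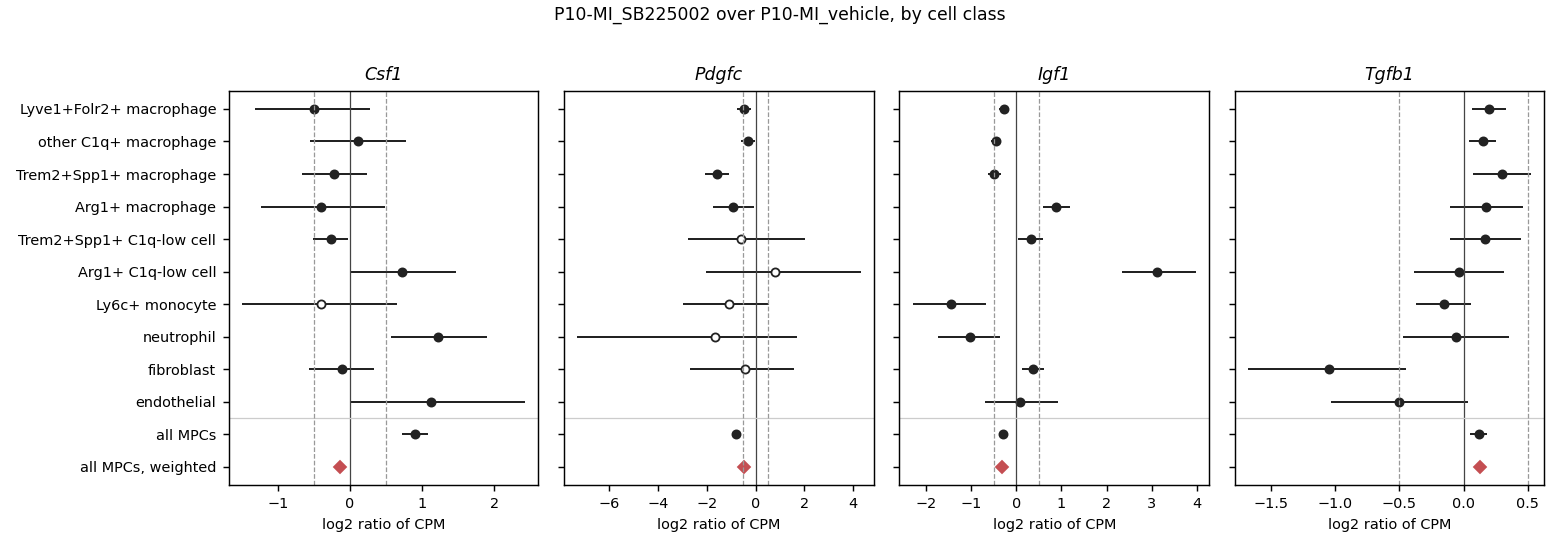
Log2 ratio of CPM of P10-MI_SB225002 over P10-MI_vehicle (x axis) for Csf1, Pdgfc, Igf1 and Tgfb1 in 10 cell classes, over all MPCs, and over all MPCs with the classes weighted to the P10-MI_vehicle makeup (red diamond), with exact 95% intervals and dashed lines at 0.5 and -0.5. Open points have under 50 UMIs over both libraries; the weighted Csf1 value is -0.14 against 0.90 as found, and Igf1 lies above 0 in both Arg1+ classes.

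Osm did not differ over all MPCs beyond counting error, at 17.2 and 18.4 CPM, a log2 ratio of 0.09 (-0.11 to 0.29). Within classes it moved apart. Neutrophils had 87.2 and 191 CPM, 1.13 (0.81 to 1.46), Arg1+ C1q-low cells 111 and 36.8 CPM, -1.59 (-2.32 to -0.91), and Arg1+ macrophages 39.5 and 23.1 CPM, -0.77 (-1.44 to -0.08). Neutrophil depth differed as well, with medians of 12654 and 5278 UMIs per cell, and after thinning to 1000 UMIs 10.3% (5.24 to 17.7) and 14.4% (9.60 to 20.3) of neutrophils held an Osm UMI, intervals that overlap.

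Tgfb1 was slightly higher with SB225002 in C1q+ macrophages, at 189 and 212 CPM, 0.17 (0.10 to 0.23), and in each of their 5 classes the log2 ratio was above 0, from 0.15 to 0.35, within the fold. Fibroblasts went from 59.6 to 28.7 CPM, -1.05 (-1.68 to -0.46), and in the same cells Vegfa went from 55.5 to 28.7 CPM, -0.95 (-1.58 to -0.35). Pdgfa had log2 ratios of 0.33 (0.15 to 0.50) over MPCs and 0.30 (0.12 to 0.49) in C1q+ macrophages, inside the fold. Pdgfb was at 0.04 (-0.08 to 0.16) over MPCs and at -1.05 (-1.89 to -0.24) in Arg1+ C1q-low cells. Hbegf, with 39 and 28 UMIs, had -0.79 (-1.55 to -0.05), a value that turned to 0.89 after thinning, and Vegfa and Vegfb differed by less than counting error, at -0.37 (-0.94 to 0.20) and -0.13 (-0.30 to 0.04). With the classes weighted to the P10-MI_vehicle makeup, Vegfa was at -0.97 over MPCs. In C1q+ macrophages Vegfa was at -0.57 weighted and 0.16 as found.

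The classes that held each gene's UMIs show the same data by source. Lyve1+Folr2+ and other C1q+ macrophages together held 93.0%, 76.4% and 48.8% of Igf1 UMIs in the sham, MI and SB225002 libraries, and Trem2+Spp1+ and Arg1+ macrophages 0.828%, 10.5% and 30.6%. For Csf1 the former held 30.7%, 14.3% and 5.17%, and the Trem2+Spp1+ and Arg1+ C1q-low cells 0%, 40.0% and 53.0%. Fibroblasts, endothelial and mural cells held 65.1%, 48.7% and 36.5% of Vegfa UMIs, 33.3%, 40.5% and 40.6% of Hbegf UMIs and 42.2%, 19.7% and 9.87% of Csf1 UMIs. Of Osm UMIs, Lyve1+Folr2+ and other C1q+ macrophages held 66.7%, 28.4% and 19.1% and neutrophils 15.5%, 23.6% and 26.1%. Lyve1+Folr2+ and other C1q+ macrophages held 93.7%, 79.8% and 68.6% of Pdgfc UMIs. These shares follow class makeup as well as level. Of all UMIs of the kept cells, Lyve1+Folr2+ macrophages held 39.4%, 23.9% and 13.7%, and other C1q+ macrophages 46.8%, 32.8% and 27.1%. Trem2+Spp1+ macrophages held 0.357%, 5.05% and 13.8%, and Arg1+ macrophages 0.219%, 2.72% and 8.83%. Trem2+Spp1+ C1q-low cells held 0%, 2.79% and 8.20%, and neutrophils 1.68%, 5.40% and 3.55%.

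**Figure D4:**
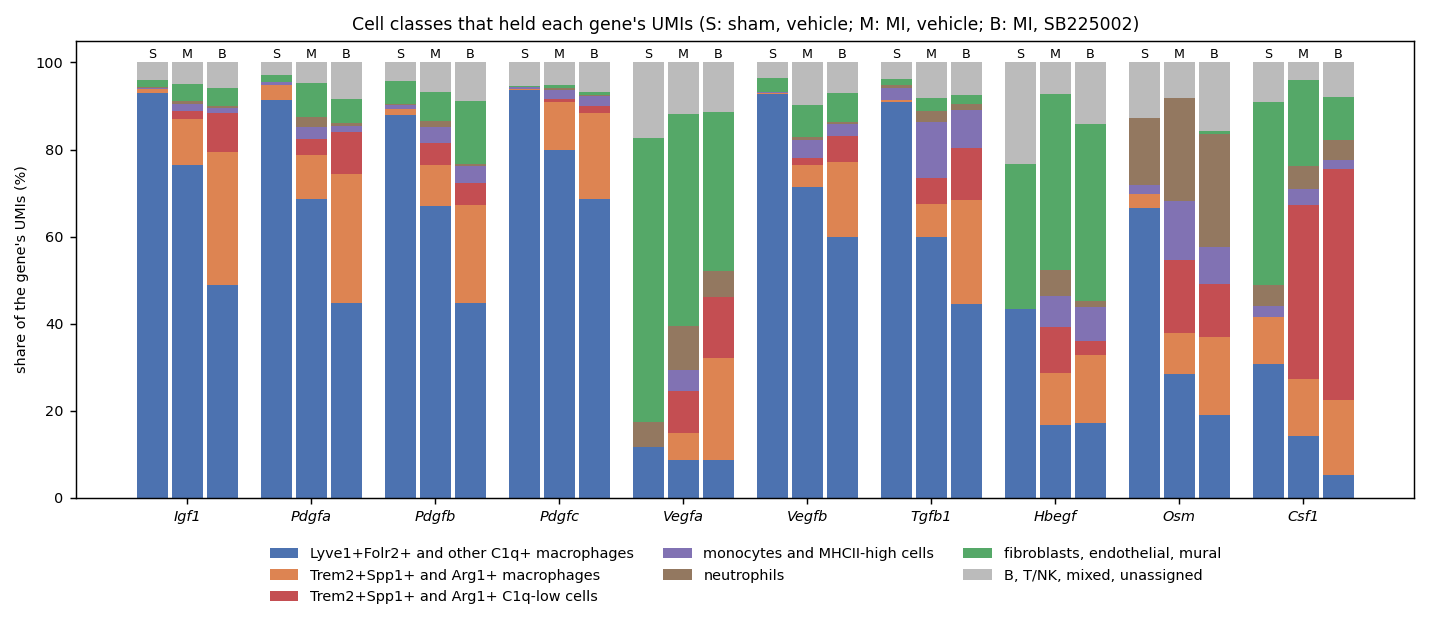
Share of each gene's UMIs (y axis, %) held by 7 groups of cell classes (colours) in the sham (S), MI (M) and MI with SB225002 (B) libraries, each bar adding to all UMIs of the gene in kept cells. The red segment of Csf1, Trem2+Spp1+ and Arg1+ C1q-low cells, goes from 0% in sham to 40.0% and 53.0%, and the blue segment of Igf1 from 93.0% to 76.4% and 48.8%. Shares also follow how many UMIs each class held in a library.

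Dividing cells, called from summed S or G2/M markers, were 33.3%, 25.5% and 34.9% of C1q+ macrophages, and Igf1, Pdgfb and Pdgfc were lower in them in every library beyond counting error. Igf1 stood at 282, 344 and 295 CPM in dividing and 472, 489 and 392 CPM in non-dividing C1q+ macrophages, log2 ratios of -0.74 (-0.82 to -0.67), -0.51 (-0.59 to -0.43) and -0.41 (-0.48 to -0.34). Pdgfc had -0.64 (-0.85 to -0.42), -0.72 (-0.97 to -0.47) and -0.29 (-0.55 to -0.04), and Pdgfb -0.47 (-0.67 to -0.27), -0.23 (-0.45 to -0.02) and -0.34 (-0.52 to -0.16). Csf1 was at -0.53 (-1.35 to 0.25), -1.61 (-2.38 to -0.91) and -0.74 (-1.13 to -0.36), so its sham interval included 0. Vegfb was the one gene above 0 in all 3, at 0.15 (-0.08 to 0.39), 0.49 (0.22 to 0.75) and 0.36 (0.12 to 0.60), and Tgfb1 was near 0, at -0.16, -0.08 and -0.01. The classes within C1q+ macrophages were pooled here but differed in dividing share. In P10-MI_vehicle it was 11.5% in Trem2+Spp1+ and 28.2% in other C1q+ macrophages. The part of class makeup in these ratios was not tested, and they have no values over all genes beside them.

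**Figure D5:**
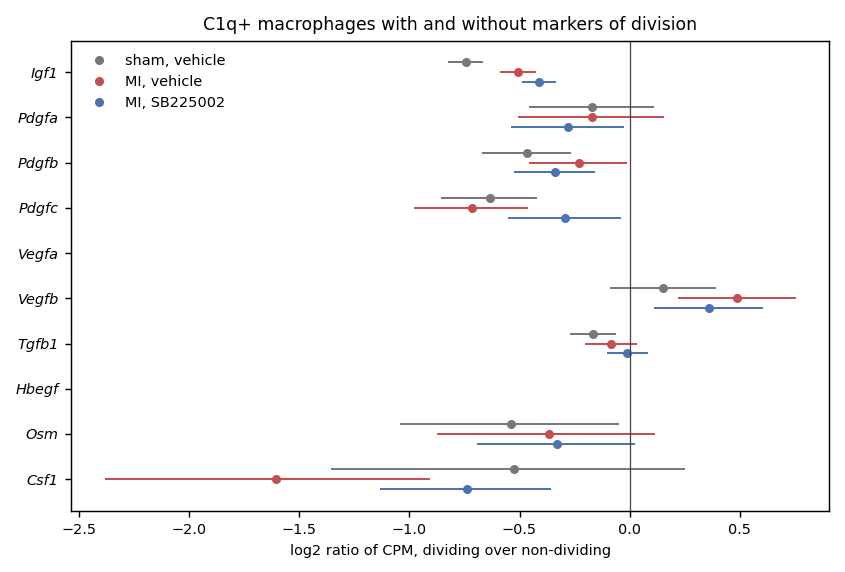
Log2 ratio of CPM in dividing over non-dividing C1q+ macrophages (x axis) for each gene (y axis) in the sham (grey), MI (red) and MI with SB225002 (blue) libraries, with exact 95% intervals; Vegfa and Hbegf are left out for few UMIs. Igf1, Pdgfb and Pdgfc lie below 0 in all 3 libraries with intervals that exclude 0, and Vegfb above 0.

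Genes around these factors were read as lists, by counts over all MPCs among members with at least 50 UMIs and beside medians of -0.07 (MI over sham) and -0.05 (SB225002 over MI) for all genes. The class makeup of MPCs differs between the libraries, and its part in these counts was not tested. Of 22 receptors, 2 of 15 were higher and 0 lower after MI (median -0.01; all genes 8.61% and 5.68%), and 0 of 17 were higher and 4 lower with SB225002 (median -0.27; all genes 5.3% and 10.4%). Named by number of UMIs, which without division by transcript length does not rank expression, were Csf1r, the CSF1 receptor, at 898, 824 and 667 CPM, the VEGF co-receptor Nrp1 at 299, 253 and 184 CPM, and Tgfbr2 at 173, 138 and 108 CPM; none was past the fold in either comparison. The 4 lower receptors, named after their values were seen, were Lifr (-1.19), Egfr (-1.65), Insr (-0.51) and Pdgfrb, at -0.83 (-1.71 to 0.02) from 30 and 21 UMIs and itself a gate gene of mural cells.

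Of 22 related ligands, 3 of 7 were higher and 0 lower after MI (median 0.24), where all genes had 8.61% and 5.68%, and 0 of 8 were higher and 5 lower with SB225002 (median -0.73), where all genes had 5.3% and 10.4%. Areg and Il6 were past the fold in both comparisons, but reached 50 UMIs only through P10-MI_vehicle, the library both comparisons share, so their place in these counts was set in part by the filter and supports nothing. Areg, which encodes an EGF receptor ligand, had 6, 86 and 26 UMIs and log2 ratios of 3.74 (2.56 to 5.23) and -2.04 (-2.73 to -1.39), and Il6 had 2, 54 and 3 UMIs and 4.66 (2.73 to 7.74) and -4.48 (-6.81 to -2.86). Grn (progranulin) stood at 1159, 1208 and 1285 CPM, Gas6, a ligand of the TAM receptors, at 405, 308 and 204 CPM and Gdf15 at 22.9, 24.3 and 13.3 CPM.

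Of 26 binding, processing and activating proteins, 4 of 18 were higher and 1 lower after MI (median 0.22), against 8.61% and 5.68% of all genes, and 3 of 19 higher and 1 lower with SB225002 (median 0.18), against 5.3% and 10.4%. Thbs1, thrombospondin 1, an activator of latent TGFB1, was higher in both, at 6.45, 86.2 and 182 CPM, log2 ratios of 3.74 (3.48 to 4.02) and 1.08 (0.999 to 1.16). Mmp14, a membrane-bound protease, was at 32.3, 66.4 and 99.2 CPM, 1.04 (0.90 to 1.18) and 0.58 (0.48 to 0.68). Named by number of UMIs were Igfbp4, which binds IGF1, at 343, 253 and 235 CPM, Nrros, which anchors latent TGFB1 on macrophages, at 240, 209 and 218 CPM, and the integrin gene Itgb5 at 187, 186 and 211 CPM.

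Of 11 hypoxia genes, 7 of 10 were higher and 0 lower after MI (median 0.68), against 8.61% and 5.68% of all genes, and 2 of 10 higher and 1 lower with SB225002 (median 0.13), against 5.3% and 10.4%. Hexokinase 2 (Hk2) passed the fold in both, at 43.4, 64.7 and 25.6 CPM, 0.57 (0.45 to 0.70) and -1.33 (-1.47 to -1.20), and Ldha, Pgk1 and Hif1a stood at 292, 330 and 520 CPM, 157, 213 and 350 CPM and 48.0, 83.9 and 91.2 CPM. The median of the hypoxia genes after MI was 0.44 in C1q+, 0.27 in Lyve1+Folr2+ and 0.30 in other C1q+ macrophages. All genes had medians of -0.05, -0.01 and -0.05 there. Of 11 immediate-early genes, 1 was higher and 0 lower after MI (median 0.06), and 0 were higher and 8 lower with SB225002 (median -0.85), beside the same shares of all genes. Nr4a1 passed the fold in both, at 23.2, 74.6 and 33.3 CPM, 1.68 (1.53 to 1.84) and -1.16 (-1.29 to -1.04), and Fos, Jun and Zfp36 stood at 797, 958 and 490 CPM, 715, 677 and 375 CPM and 530, 552 and 349 CPM. Immediate-early genes respond to tissue dissociation as well as to signals in the animal, and the part of handling was not tested.

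Patterns over 27 sums of a class in a library, each of at least 50 cells, were compared among 14339 genes by Pearson's r of log2(CPM + 10), as a description, since the sums share libraries and depth. Osm was most like Pygl (0.97), Trem1 (0.96) and Prr13 (0.95), Pdgfc like Osbpl11 (0.95), Npl (0.94) and Hgsnat (0.94), and Igf1 like March8 (0.89), Cpeb3 (0.88) and Camk1 (0.88). For Csf1 the nearest were Igf2bp2 (0.87), Pde4d (0.81) and Igf2r (0.81), for Tgfb1 Ormdl2 (0.92), for Pdgfb Gdpd5 (0.92), for Vegfb Zfp704 (0.93), for Vegfa Ackr3 (0.91), for Hbegf Jam2 (0.86) and for Pdgfa Fuom (0.83). Over all MPCs, Vegfa and Hbegf stood far below the 10 CPM added, so their r values rest mainly on the few classes with higher levels. Among the 10 genes themselves, Igf1 and Pdgfa were closest (0.81), followed by Igf1 and Vegfb (0.74) and Igf1 and Pdgfc (0.70), and the most opposed pair was Osm and Vegfb (-0.77).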

How the data were processed

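The 3 libraries of CD45+F4/80+ sorted heart cells were made on a droplet platform and sequenced by the authors, 1 library per condition from pooled hearts. The deposited files hold UMI counts per gene and cell, not normalised. Per the labels the build was mm10 and Seurat 4.1.0 was used; the aligner and annotation were not given in the sources used here. Cells with 500 to 30000 UMIs, 500 to 5000 genes and a mitochondrial share under 10% were kept (21656124, 26122174 and 31400723 UMIs in the sham, MI and SB225002 libraries). Doublets were kept, and removing the top 6% of Scrublet scores was an alternative. Cells were gated by summed marker UMIs per 10000, with limits set on the marker sums and not on the growth factor genes. The Trem2+Spp1+ C1q-low class was added after the leading genes of unassigned cells had been seen. UMIs were summed per class and library and given as CPM with exact Poisson intervals, ratios with exact conditional intervals and shares with exact binomial (Clopper-Pearson) intervals, all at 95%. With 1 library per condition there was no test. For shares at equal depth each cell was thinned to 1000 UMIs.

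The genes and lists were chosen with earlier results of these data known. The lists held 22 receptors, 22 related ligands, 27 binding, processing and activating proteins (26 in the files), 11 hypoxia genes and 11 immediate-early genes. All 10 growth factor genes were named, and of each list the 3 with most UMIs in MPCs plus those past the fold in both comparisons. Alternatives were cluster classes (2000 variable genes, 20 principal components, 15 neighbours, resolution 2), other gate limits and scalings (edgeR 4.0.16, DESeq2 1.42.0), thinning, shared barcodes or the Trem2+Spp1+ C1q-low class left out and weighting to 1 class makeup. The ratio code was tested on simulated data. Python 3.11.15, numpy 2.4.6, scipy 1.17.1, scanpy 1.11.5, matplotlib 3.10.9 and R 4.3.3 were used.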

Additional observations from a re-analysis of the deposited data

How the results depend on the processing

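No paired analysis was possible because each condition was 1 library. Of 782 values of the 55 log2 ratios under alternatives, 678 were counted as unchanged, 88 as moved beyond the counting interval and 16 as changed in sign. Ratios within single classes were included only if past the fold, with at least 50 cells in both libraries and an interval without 0. Leaving out Trem2+Spp1+ C1q-low cells could not alter ratios in C1q+ macrophages or other single classes. It gave 53 of the unchanged values, so the total overstates how far the ratios were tried. Only ratios past the fold could count as changed in sign. Sign changes of smaller ratios are therefore among the other values, such as Osm in C1q+ macrophages (MI over sham), 0.32 as found and -0.34 when weighted. Log-normalised means were not set against the interval, and 54 of the 678 are theirs. The cause was not tested except where a weighting replaces the class makeup by construction. Weighting to the P10-MI_vehicle makeup turned Csf1 in MI over sham to -0.99 (MPCs) and -1.09 (C1q+ macrophages), Osm to -0.085 (MPCs), and Csf1 in SB225002 over MI to -0.14 (MPCs; -0.16 over classes of at least 50 cells) and -0.19 (C1q+ macrophages). Thinning turned Hbegf over MPCs to -1.001 (MI over sham) and 0.89 (SB225002 over MI), and Csf1 in endothelial cells to -1.91 (-0.012 with log-normalised means). Igf1 in Ly6c+ monocytes with SB225002 turned to 0.14 with cluster classes and to 0.91 and 0.093 with gate limits of 0.5 and 2 times the height, and Csf1 in neutrophils to -0.26 with cluster classes and -0.14 with the higher limits.

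The counts of growth factor genes past the fold moved as follows. In MI over sham within C1q+ macrophages, 1 higher became 2 after thinning and 0 when weighted, and 0 lower became 2 when weighted. Over MPCs, 4 higher became 2 under either weighting, and 0 lower became 1 after thinning and 2 when weighted. In SB225002 over MI within C1q+ macrophages, 1 higher became 2 after thinning or with the higher gate limits and 0 without shared barcodes, when weighted or at a log2 limit of 1, and 1 lower became 2 with cluster classes and 0 at a limit of 1. Over MPCs, 1 higher became 2 after thinning and 0 when weighted or at a limit of 1, and 2 lower became 1 after thinning and 0 at a limit of 1. When weighted, Vegfa was past the fold lower in place of Pdgfc, over MPCs and in C1q+ macrophages, which left the counts of lower genes unchanged. Leaving out shared barcodes, leaving out Trem2+Spp1+ C1q-low cells (Csf1 over MPCs 1.51 and 0.56, no count past the fold changed), the other gate limits, the weighting within C1q+ macrophages and the weighting over classes of at least 50 cells were chosen after seeing the data. Log-normalised means are on another scale and gave no count past the fold. The highest class of a gene in a library was kept in 22 to 30 of 30 cases. Vegfa and Hbegf, with at most 55 and 39 UMIs in the MPCs of a library, are limited by depth, and with 1 library per condition no difference could be set against the spread between animals.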
